A study of Caenorhabditis elegans with 8 samples.

Results

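The aquaporins of Caenorhabditis elegans were followed in 8 genes, aqp-1 to aqp-8, of 17118 genes that the array annotation names with 1 symbol. A probe set was taken where its annotation gave a single symbol among these 8, and a gene with more than 1 probe set was represented by the one with the highest mean log2 signal over the 8 arrays. This gave 9 probe sets of 22548 tested, with a pair for aqp-2 and 1 for each other gene. Both aqp-2 probe sets have names ending in _x_at or _s_at, which mark probes that can pick up related sequences.

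Aquaporins are membrane channels built of subunits that each hold a pore; some pass only water, and others, the aquaglyceroporins, also pass glycerol and other small solutes. In this worm, glycerol is both a product of fat breakdown and the osmolyte that builds up under hypertonic stress, and aquaporin genes are active in the intestine, the excretory cell and the hypodermis, the tissues that handle salt and water. Expressed in frog oocytes, AQP-1, AQP-3 and AQP-7 raised glycerol permeability, and AQP-2, AQP-3, AQP-4, AQP-6 and AQP-7 raised water permeability. aqp-1 is further known as a gene that the transcription factors DAF-16 and HSF-1 control and that dietary glucose represses.

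RNA came from whole adult worms of the N2 wild-type strain, all placed on plates with FUDR, a nucleotide analogue that blocks progeny, and all collected on day 4 of adulthood. The 4 groups of 2 arrays were worms fasted without cholesterol, fed without cholesterol, fasted with cholesterol and fed with cholesterol; deprivation began at hatching, and this worm cannot make the sterol itself. The labels disagree on the fast, giving 24 h in one field and 48 h from day 2 of adulthood in another. Since the RNA is from whole worms, fewer cells of a type and less RNA per cell cannot be told apart, and levels of different genes are not comparable because each is read by its own probes. The labels call the replicates independent, but none says that they came from separate cultures. The p-values therefore measure only the spread between these arrays, which may in part be technical. Array medians lay between 66.9 and 71.0 intensity units, and replicates of a group correlated across probe sets at r = 0.992 to 0.994. Values are RMA signals of the authors (a normalised brightness, linear scale), changes are differences of log2(signal + 1) ± SE from limma with n = 2 arrays per group, and "rose" or "fell" means a Benjamini-Hochberg adjusted p under 0.05 over all probe sets.

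aqp-1, aqp-7 and aqp-8 were at their lowest in fed worms given cholesterol. Fasting raised aqp-1 and aqp-7 when cholesterol was present, and cholesterol deprivation raised aqp-1, aqp-7 and aqp-8 when food was present. Over all probe sets, 2.03% rose on fasting with cholesterol and 0.514% on deprivation of fed worms. Both comparisons are set against the same fed arrays with cholesterol. In worms without cholesterol, fasting gave 0 limma calls among the 8 genes (1 at an unadjusted p under 0.05, aqp-1), where 2.91% of all probe sets passed. The other 5 genes, aqp-2 to aqp-6, passed in none of the 9 comparisons made (limma; at an unadjusted p under 0.05, aqp-3 did in 5 of them and aqp-2 in 1).

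**Figure D1:**
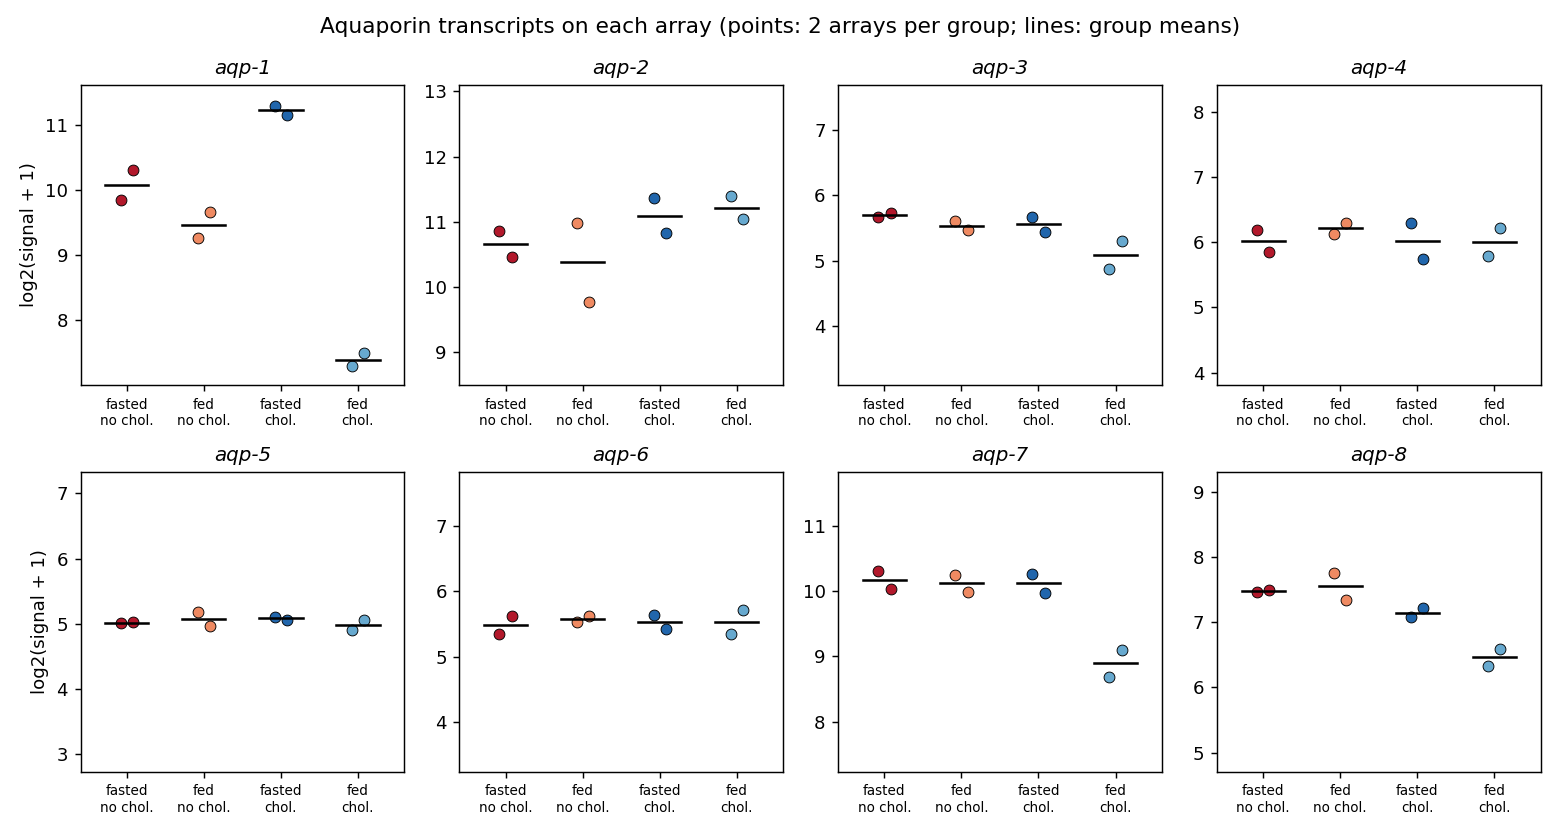
Log2(signal + 1) of the 8 aquaporin genes, 1 panel per gene with an equal span on every vertical axis; each point is 1 array, each line a group mean of 2 arrays, and chol. stands for cholesterol. The fed arrays with cholesterol lie at the bottom for aqp-1, aqp-3, aqp-7 and aqp-8, as in 10.6% of all probe sets, while aqp-5 and aqp-6 are flat.

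The glycerol channels come first. aqp-1 gave 919.9 and 1266 intensity units in fasted deprived worms, 612.9 and 810.4 in fed deprived worms, 2506 and 2268 in fasted worms with cholesterol, and 155.9 and 179.9 in fed worms with cholesterol. The 4 groups did not overlap, and from high to low they stood in the order fasted with cholesterol, fasted deprived, fed deprived, fed with cholesterol. The highest array was 16.1 times the lowest, and the SD of aqp-1 over the 8 arrays, 1.49 on the log2 scale, was at percentile 99.5 of all probe sets.

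With cholesterol present, fasting raised aqp-1 by 3.82 ± 0.20 on the log2 scale, 14.2-fold (limma adjusted p = 0.00011), the gene being 25th of all probe sets by p. Without cholesterol, the same contrast was 0.61 ± 0.20, 1.53-fold, and did not pass (adjusted p = 0.179), though it did with the replicate number as a block (adjusted p = 0.0491). Fasted and fed arrays lay apart, in either direction, in 57% of all probe sets with cholesterol and 46.2% without it. Those of aqp-1 did so at both cholesterol states, by very different distances. The difference between both fasting changes was -3.21 ± 0.28 (adjusted p = 0.0184, 95% interval -3.86 to -2.57), 6th of all probe sets by p. In the test of that difference, 22 of all probe sets passed, 0.0976%, and aqp-1 was the 1 aquaporin among them. It passed when either fasted deprived array was left out, and missed without any 1 of the other 6 arrays (adjusted p = 0.071 to 0.109), while the value itself stayed between -3.44 and -2.98.

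Cholesterol deprivation moved aqp-1 in opposite directions according to food. In fed worms deprivation raised it by 2.07 ± 0.20, 4.19-fold (limma adjusted p = 0.00627), a call that was lost without fed replicate 1 of the worms with cholesterol (1.96, adjusted p = 0.0669). In fasted worms deprivation lowered it, at -1.14 ± 0.20 or 0.453 times (limma adjusted p = 0.048), a call at the edge of the threshold. That fall passed with fasted deprived replicate 2 left out and missed without any 1 of the other 7 arrays (adjusted p = 0.0627 to 0.268; values -1.22 to -0.91). Fasting and deprivation together left aqp-1 2.68 ± 0.20 above fed worms with cholesterol (limma adjusted p = 0.000285). Fed deprived worms lay below fasted worms with cholesterol, at -1.76 ± 0.20 (limma adjusted p = 0.00333).

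aqp-7, which passes both water and glycerol, was low in 1 group and level in the other 3. It gave 1271 and 1042 units in fasted deprived worms, 1218 and 1017 in fed deprived worms, 1234 and 1007 in fasted worms with cholesterol, and 412.4 and 546.7 in fed worms with cholesterol. The lowest array of the other 3 groups, at 1007, was well above the higher of the fed arrays with cholesterol, at 546.7. Fasting with cholesterol raised aqp-7 by 1.23 ± 0.19, 2.34-fold (limma adjusted p = 0.0134), and deprivation of fed worms raised it by 1.23 ± 0.19, also 2.34-fold (limma adjusted p = 0.0322). Both contrasts are set against the same pair of arrays, so they are not independent of each other. The 3 higher groups stood within 0.05 of each other on the log2 scale, for example fasted deprived minus fed deprived at 0.05 ± 0.19 (95% interval -0.39 to 0.49), which leaves room for a change of up to about that interval. Fasted deprived worms were above fed worms with cholesterol by 1.28 ± 0.19 (limma adjusted p = 0.00784).

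The calls of aqp-7 rested on few arrays. Its fasting call with cholesterol was lost without fasted replicate 1 (1.08, adjusted p = 0.0882) or fed replicate 1 (1.03, adjusted p = 0.0856) of the worms with cholesterol. Its deprivation call in fed worms held without either fasted deprived array and was lost without any 1 of the other 6 (adjusted p = 0.0572 to 0.206; values 1.02 to 1.43), and with cyclic loess scaling (adjusted p = 0.0527). The combined contrast was lost without fed replicate 1 of the worms with cholesterol (1.07, adjusted p = 0.0523). The difference between both fasting changes of aqp-7, -1.18 ± 0.27, ranked 166th by p and did not pass (limma adjusted p = 0.362).

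aqp-3, which passes water and glycerol and is active in osmoregulatory tissue, was dim, with 49.6 and 52.4 units in fasted deprived worms, 47.6 and 43.2 in fed deprived worms, 50.1 and 42.4 in fasted worms with cholesterol, and 28.3 and 38.4 in fed worms with cholesterol. Both fed arrays with cholesterol lay below all 6 others, as for aqp-1 and aqp-7, but the gaps were small. Of all probe sets, 10.6% had that arrangement. Fasting with cholesterol gave 0.47 ± 0.16 and deprivation of fed worms 0.45 ± 0.16 (limma adjusted p = 0.14 and 0.286). Fasted deprived worms stood 0.61 ± 0.16 above fed worms with cholesterol, which missed the threshold (limma adjusted p = 0.0733) and passed with the replicate block (adjusted p = 0.0416) and without fed replicate 2 of the worms with cholesterol (0.83, adjusted p = 0.0462). The mean of aqp-3 was at percentile 40 of all probe sets, and fold changes of dim probe sets are understated on the log2(signal + 1) scale. No detection call was used, so whether aqp-3 was above background is not known.

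aqp-8 is an aquaporin of the excretory canal, the tube through which the worm sheds water. It gave 174.5 and 179.2 units in fasted deprived worms, 215.8 and 161.7 in fed deprived worms, 133.5 and 148.0 in fasted worms with cholesterol, and 79.7 and 95.1 in fed worms with cholesterol. All 4 deprived arrays were above all 4 arrays of worms with cholesterol, which no other of the 8 genes showed; 6.04% of all probe sets were separated by cholesterol state in one direction or the other. Deprivation of fed worms raised aqp-8 by 1.09 ± 0.16, 2.13-fold (limma adjusted p = 0.0271), while in fasted worms the change was 0.33 ± 0.16 (adjusted p = 0.411). Averaged over both feeding states, deprivation raised it by 0.71 ± 0.11, 1.64-fold (limma adjusted p = 0.0195).

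Fasting with cholesterol gave 0.69 ± 0.16 for aqp-8 and just missed the threshold (limma adjusted p = 0.0575). It passed with the replicate block (adjusted p = 0.0285), after the arrays were shifted to an equal median of their bright probe sets (0.78, adjusted p = 0.0331) and without either fed deprived array (adjusted p = 0.0477). Without cholesterol the fasting change was -0.08 ± 0.16, and the difference between both fasting changes, -0.76 ± 0.23, did not pass (limma adjusted p = 0.432). Fasted deprived worms were 1.01 ± 0.16 above fed worms with cholesterol (limma adjusted p = 0.0105), a call lost without fasted deprived replicate 2 (0.995, adjusted p = 0.0561) or fed replicate 1 of the worms with cholesterol (0.89, adjusted p = 0.0772). The deprivation call in fed worms held without either fasted deprived array or fed deprived replicate 2. It was lost without any 1 of the other 5 arrays (adjusted p = 0.0583 to 0.205; values 0.89 to 1.22). The average deprivation call was lost without fasted deprived replicate 1, either fasted array with cholesterol or fed replicate 1 with cholesterol (adjusted p = 0.0506 to 0.0813; values 0.65 to 0.75).

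**Figure D2:**
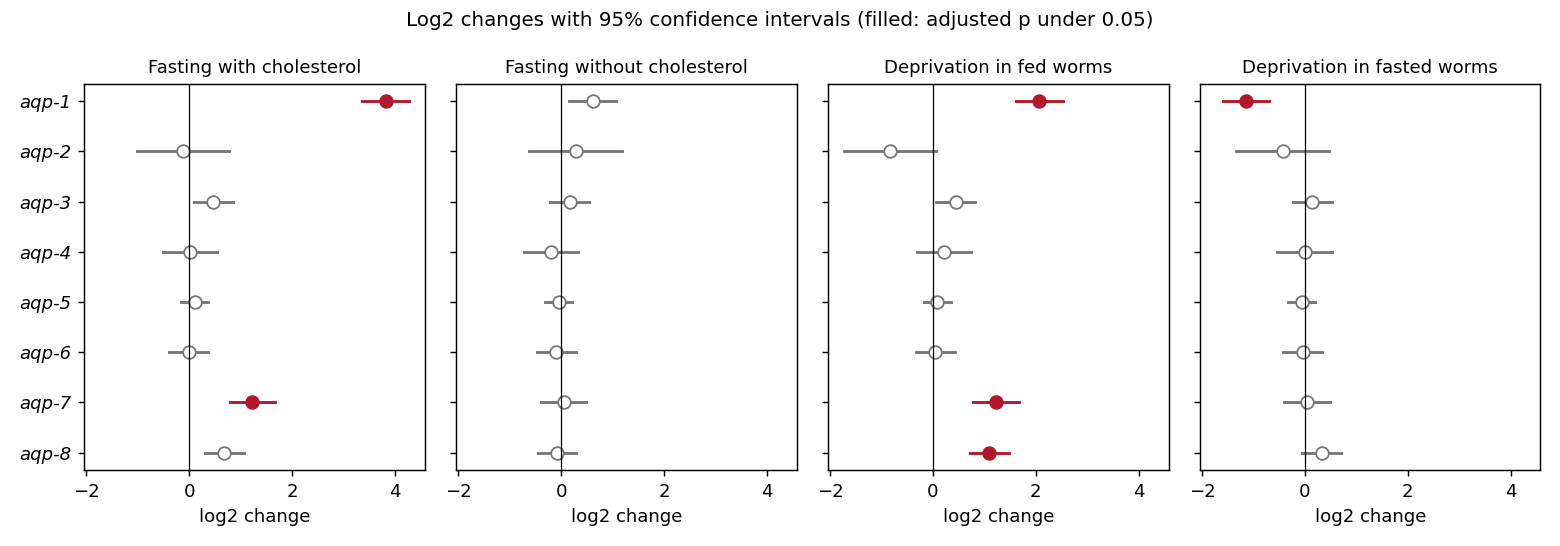
Log2 changes of the 8 aquaporin genes in the 4 single-factor comparisons; points are limma estimates, bars their 95% confidence intervals, and filled points have an adjusted p under 0.05. Rises appear for aqp-1 and aqp-7 on fasting with cholesterol and for aqp-1, aqp-7 and aqp-8 on deprivation of fed worms, and aqp-1 is the 1 gene that fell, on deprivation of fasted worms.

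The remaining genes, aqp-2, aqp-4, aqp-5 and aqp-6, passed in no comparison. aqp-2, a water channel also active in osmoregulatory tissue, gave 1862 and 1409 units in fasted deprived worms, 2025 and 874.9 in fed deprived worms, 2630 and 1813 in fasted worms with cholesterol, and 2702 and 2104 in fed worms with cholesterol. Replicate 2 was the lower array in all 4 groups, and the fed deprived arrays differed by more than the group means did. Deprivation of fed worms gave -0.84 ± 0.38 (limma adjusted p = 0.394), with a second, dimmer probe set at -0.73 ± 0.37. Averaged over feeding states, deprivation gave -0.64 ± 0.27 (adjusted p = 0.299), which passed with the replicate block (adjusted p = 0.0271). The second aqp-2 probe set gave -0.77 ± 0.26 there (adjusted p = 0.194 without the block). Fed deprived worms minus fasted worms with cholesterol was -0.71 ± 0.38 for aqp-2 and passed only with the block (adjusted p = 0.0443, against 0.348 without).

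aqp-4, a water channel of the intestine, gave 71.8 and 56.5 units in fasted deprived worms, 69.0 and 77.9 in fed deprived worms, 77.5 and 52.7 in fasted worms with cholesterol, and 54.5 and 73.5 in fed worms with cholesterol. Every pair of groups compared on 1 factor overlapped, and the 4 single-factor changes lay between -0.20 and 0.21. The 95% intervals of aqp-4 were -0.73 to 0.33 for fasting without cholesterol and -0.32 to 0.74 for deprivation of fed worms, the widest-reaching of the 4 in each direction, so changes up to those bounds could have been missed.

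aqp-6, a water channel when expressed in oocytes, ranged from 39.8 to 51.8 units over the 8 arrays, a ratio of 1.3. Its fasting change with cholesterol was -0.01 ± 0.16 (95% interval -0.39 to 0.37). aqp-5 ranged from 29.1 to 35.2 units, a ratio of 1.21, and its SD over the arrays was at percentile 8.8 of all probe sets. Its fasting change with cholesterol was 0.10 ± 0.11. The means of aqp-5 and aqp-6 were at percentiles 32.0 and 41.1 of all probe sets, and no detection call was used, so whether they were above background is not known.

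Counted over the family, fasting with cholesterol raised 2 of 8 genes and lowered 0, where 2.03% of all probe sets rose and 5.16% passed in either direction. Deprivation of fed worms raised 3 and lowered 0, where 0.514% of all probe sets rose and 1.21% passed in either direction, and deprivation of fasted worms lowered 1 and raised 0, where 0.417% fell. Fasting and deprivation together raised 3 relative to neither, where 3.28% rose, and fed deprived worms against fasted worms with cholesterol had 1 lower, where 3.93% were lower. Fasting with cholesterol, deprivation of fed worms and both factors together are all set against the same fed arrays with cholesterol. Their counts are therefore not independent of each other. The average fasting effect raised aqp-1 (2.22 ± 0.14) and aqp-7 (0.64 ± 0.13), where 5.5% of all probe sets rose, and the average deprivation effect raised aqp-7 (0.64 ± 0.13) and aqp-8, where 2.03% rose.

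Those averages join unlike effects for aqp-1, whose deprivation changes have opposite signs, with an average of 0.46 ± 0.14 that did not pass (limma adjusted p = 0.136; with the replicate block adjusted p = 0.0343). The average fasting effect of aqp-1 joins 3.82 with cholesterol and 0.61 without it. For aqp-7 each average joins 1.23 and 0.05, and both values of 1.23 rest on the same fed arrays with cholesterol. The average deprivation effect of aqp-8 joins 1.09 in fed and 0.33 in fasted worms. The average deprivation call of aqp-7 (limma adjusted p = 0.0457) was lost without each of the 8 arrays in turn (adjusted p = 0.0528 to 0.143). Its average fasting call (limma adjusted p = 0.0253) was lost without fasted deprived replicate 1, fed deprived replicate 2, or replicate 1 of either group with cholesterol (adjusted p = 0.0641 to 0.0903; values 0.54 to 0.57).

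The median change of the 8 genes was 0.29 on fasting with cholesterol, beside 0.08 over all probe sets, and 0.00 without cholesterol, beside -0.02. It was 0.33 for deprivation of fed worms, beside 0.05, and -0.02 for deprivation of fasted worms, beside -0.05. For the difference between both fasting changes the median was -0.26, beside -0.06, with 7 of the 8 genes below 0. This median and those for fasting with cholesterol and deprivation of fed worms use the same fed arrays with cholesterol. In a count chosen after the values were seen, both fed arrays with cholesterol lay below all 6 other arrays in 4 of the 8 genes, where 10.6% of all probe sets had that arrangement.

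**Figure D3:**
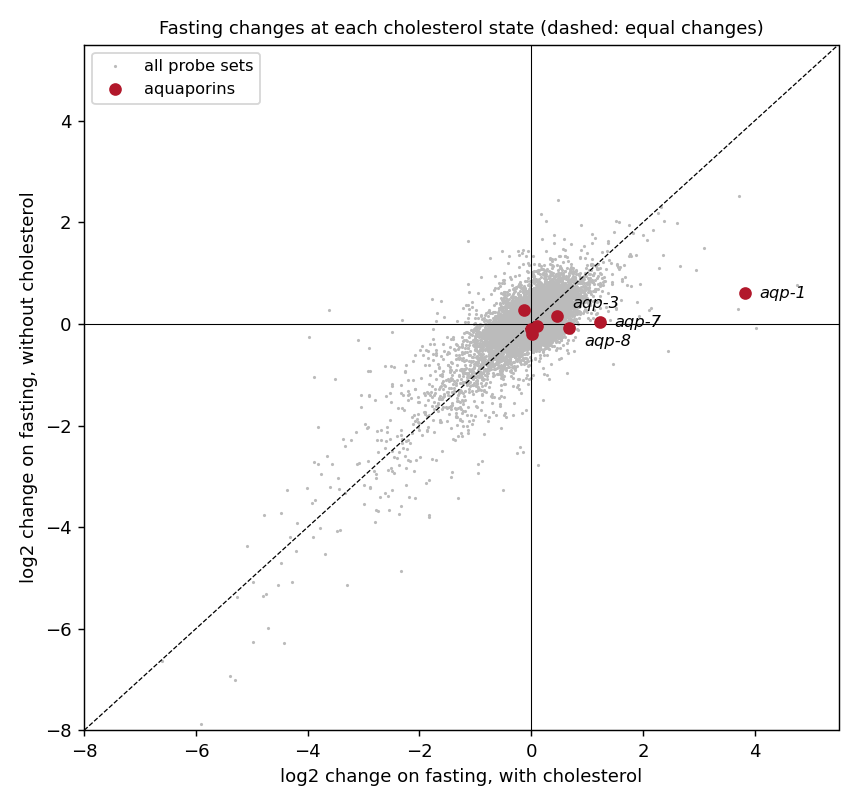
Log2 change on fasting without cholesterol (vertical) against that with cholesterol (horizontal) for all probe sets (grey) and the 8 aquaporin genes (red); both changes come from separate arrays, and the dashed line marks equal changes. aqp-1 lies far to the right at 3.82 and 0.61, with aqp-7 at 1.23 and 0.05 and aqp-8 at 0.69 and -0.08 below the line.

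The genes nearest to each called aquaporin in pattern were taken from 12910 genes with a mean above the lower quartile, by the root mean square difference of their log2 profiles over the 8 arrays after each profile was centred. For aqp-1, whose own deviation was 1.4, they were the alcohol dehydrogenase gene adh-1 (difference 0.467), T16G1.7 (0.658) and acs-2, an acyl-CoA synthetase of fat oxidation (0.688). adh-1 gave 2098 and 4186 units in fasted deprived worms, 2981 and 3261 in fed deprived worms, 4976 and 6478 in fasted worms with cholesterol, and 368.5 and 328.5 in fed worms with cholesterol. acs-2 changed by 3.33 ± 0.26 on deprivation of fed worms and by 0.15 ± 0.26 on deprivation of fasted worms, the second of which did not pass. In the test of the difference between both fasting changes, adh-1 (-4.10 ± 0.42, limma adjusted p = 0.0372) and acs-2 (-3.18 ± 0.37, adjusted p = 0.0476) passed along with aqp-1; they were picked for a profile like its own, so this is no independent result. T16G1.7 had a difference of the same sign that did not pass (-1.01 ± 0.36, adjusted p = 0.46). It gave 0.40 ± 0.26 on deprivation of fed worms, and fasting raised it both with cholesterol (2.37 ± 0.26) and without (1.35 ± 0.26, limma adjusted p = 0.0402).

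For aqp-7, with a deviation of 0.562, the nearest were K07A1.13 (difference 0.196), C10C5.4 (0.204) and mfsd-8.5 (0.211). Fasting with cholesterol raised mfsd-8.5 by 1.51 ± 0.14 and C10C5.4 by 1.01 ± 0.12. For aqp-8, with a deviation of 0.449, they were srr-4 (0.114), F25H5.8 (0.167) and F11A5.9 (0.172). srr-4 gave 827.1 and 897.8 units in fasted deprived worms, 857.2 and 818.3 in fed deprived worms, 612.7 and 758.3 in fasted worms with cholesterol, and 383.1 and 486.5 in fed worms with cholesterol. All deprived arrays of srr-4 were above all its arrays with cholesterol, like those of aqp-8. srr-4 was picked for a profile like that of aqp-8, so this is no independent result. The probe sets of T16G1.7, K07A1.13, C10C5.4 and F11A5.9 have names ending in _s_at and may include other genes.

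**Figure D4:**
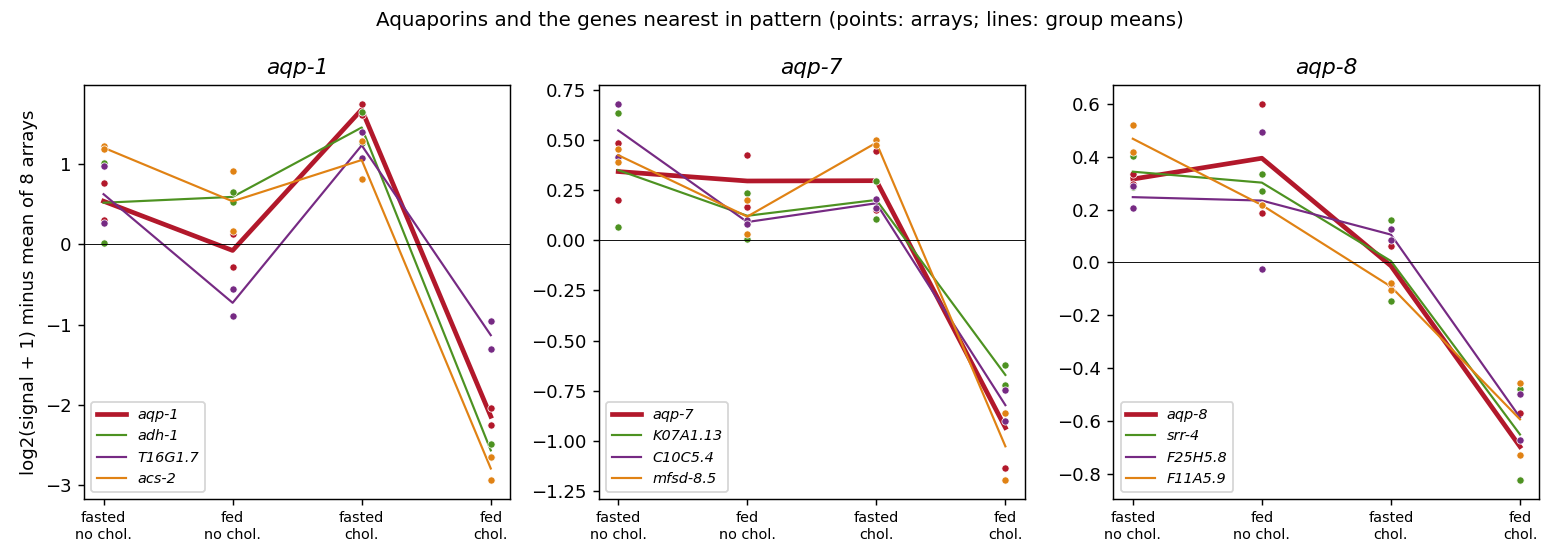
Centred log2 profiles of aqp-1, aqp-7 and aqp-8 (thick red) with the 3 genes nearest to each by root mean square difference; points are arrays, lines join group means, chol. stands for cholesterol and the vertical scales differ between panels. All 12 profiles are lowest in fed worms with cholesterol. The genes beside each aquaporin were picked for a profile like its own, so the shared low is no independent result.

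Of 11 measured genes that make and use glycerol, limma called 0 in each of the 4 single-factor comparisons and in the difference between fasting changes. Over all probe sets, 5.16% passed on fasting with cholesterol and 2.91% without it. The shares were 1.21% and 1.1% on deprivation of fed and of fasted worms, and 0.0976% for the difference. At an unadjusted p under 0.05 the glycerol genes numbered 3 on fasting with cholesterol, 2 without it, 4 on deprivation of fed worms, 1 on deprivation of fasted worms and 3 for the difference. Their median was -0.20 on fasting with cholesterol. The glycerol-3-phosphate dehydrogenase genes gpdh-1 and gpdh-2, singled out after their values were seen, gave -0.32 ± 0.16 and -0.27 ± 0.14 there. hosl-1, a hormone-sensitive lipase gene that frees glycerol from stored fat, rose by 0.59 ± 0.12 in the average fasting effect (limma adjusted p = 0.021). It was the 1 gene of the list to pass there, where 10.6% of all probe sets passed. That call, singled out after its value was seen, was lost without replicate 2 of any 1 of the 4 groups (adjusted p = 0.0633 to 0.0751).

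Of 16 measured genes of osmotic stress and osmolytes, 0 rose and 3 fell on fasting with cholesterol. Over all probe sets, 2.03% rose and 3.14% fell there. Without cholesterol 1 of the 16 rose and 1 fell, beside 0.989% and 1.92%. On deprivation of fed worms 0 rose and 1 fell, beside 0.514% and 0.696%. Limma called 0 on deprivation of fasted worms (5 at an unadjusted p under 0.05), where 1.1% of all probe sets passed. hmit-1.1, a proton-coupled transporter of the osmolyte myo-inositol, fell by 3.04 on the log2 scale on fasting with cholesterol (limma adjusted p = 0.00111), by 1.63 on fasting without it (adjusted p = 0.0209) and by 1.86 on deprivation of fed worms (adjusted p = 0.0232). In those 3 contrasts its change had the opposite sign to that of aqp-1, whose fasting change without cholesterol did not pass. On deprivation of fasted worms both were negative, at -0.45 ± 0.26 for hmit-1.1, which did not pass (adjusted p = 0.488). osm-11, a secreted regulator of the osmotic response, changed by -1.31 ± 0.20 on fasting with cholesterol, and ptr-23, a Patched-related gene, by 0.83 ± 0.15 on fasting without it.

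Of 16 genes of the insulin pathway, DAF-16 and HSF-1 with some of their targets, 1 rose and 1 fell on fasting with cholesterol. Over all probe sets, 2.03% rose and 3.14% fell there. Without cholesterol 2 of the 16 rose and 1 fell, beside 0.989% and 1.92%. On deprivation of fed worms 0 rose and 1 fell, beside 0.514% and 0.696%. Deprivation of fasted worms gave 0 limma calls (2 at an unadjusted p under 0.05), where 1.1% of all probe sets passed. The transcripts of daf-16 (0.32 ± 0.25) and hsf-1 (-0.29 ± 0.35), singled out after their values were seen, did not pass on fasting with cholesterol; activity of these factors is set largely by location in the cell, which an array does not measure. hsp-12.6, a small heat shock gene under both factors, rose by 2.66 ± 0.25 on fasting with cholesterol. hsp-16.2, a heat shock gene that HSF-1 drives, changed by -1.96 ± 0.29 on deprivation of fed worms, where aqp-1 rose. That call was lost in 7 of 17 alternatives. hsp-16.2 also rose on fasting without cholesterol, by 1.26 to 2.26 with 1 array left out at a time, a call lost in 5 of 17 alternatives. The lysozyme lys-7 changed by -2.61 ± 0.18 on fasting without cholesterol.

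Tissue markers moved beside these results. Among 12 intestinal markers, 1 rose and 6 fell on fasting with cholesterol, where 2.03% of all probe sets rose and 3.14% fell. Without cholesterol 0 rose and 4 fell, where 0.989% rose and 1.92% fell. The marker medians were -0.86 and -0.65. On deprivation of fed worms, where aqp-1 rose, 1 marker rose, beside 0.514% of all probe sets. There 9 of the 12 had an unadjusted p under 0.05 (limma), and their median was 0.315, beside 0.047 over all probe sets. On deprivation of fasted worms 2 markers rose and 1 fell, where 0.687% rose and 0.417% fell. Summed signal of the 12 markers was 5420 to 5853 units in fasted deprived worms, 14840 to 15710 in fed deprived worms, 5613 to 6845 in fasted worms with cholesterol and 15880 to 16490 in fed worms with cholesterol. That sum adds levels of different probes, so bright markers weigh most in it. The markers' median log2(signal + 1) was 7.55 to 7.85 in fasted deprived worms and 8.11 to 8.45 in fed deprived worms. With cholesterol the median was 7.37 to 7.62 in fasted worms and 8.13 to 8.27 in fed worms. The gut transcription factor elt-2, singled out after its values were seen, gave -0.21 ± 0.15 on fasting with cholesterol. aqp-1, a gene of the intestine, thus rose on fasting where 6 of 12 markers of that tissue fell, among them pgp-1, which fell in both fasting contrasts; the part of tissue amount in the aqp-1 result was not tested. pept-1, an intestinal peptide transporter, rose by 1.78 ± 0.12 on deprivation of fed worms, and asp-1, an aspartyl protease, changed by -3.02 ± 0.18 on fasting without cholesterol.

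For the excretory canal, home of aqp-8, limma called 0 of 12 markers in either single deprivation contrast (0 in fed and 2 in fasted worms at an unadjusted p under 0.05), where 1.21% and 1.1% of all probe sets passed. The marker median was 0.14 in fed worms. In the average deprivation effect 1 marker rose, where 2.03% of all probe sets rose. Under both factors together 1 marker rose and 1 fell, where 3.28% rose and 3.49% fell. Summed signal of the 12 markers was 2429 to 2892 units in fasted deprived worms, 2292 to 2711 in fed deprived worms, 2350 to 2502 in fasted worms with cholesterol and 2729 to 2750 in fed worms with cholesterol. The markers' median log2(signal + 1) was 7.15 to 7.26 in fasted deprived worms, 7.18 to 7.34 in fed deprived worms, 7.06 to 7.18 in fasted worms with cholesterol and 6.96 to 7.10 in fed worms with cholesterol. The sum, which adds levels of different probes, was thus not lowest in the group where aqp-8 was lowest, while the median was lowest there, with ranges that overlapped between the groups with cholesterol; the part of canal tissue in the aqp-8 result was not tested. On fasting with cholesterol 1 of the 12 canal markers fell and 0 rose, where 3.14% of all probe sets fell and 2.03% rose. The 1 that fell was the canal transporter pgp-12 (-1.15 ± 0.21), a call lost in 4 of 17 alternatives. The marker median there was 0.083, beside 0.077 over all probe sets. Of 10 body wall muscle markers, 2 fell on fasting with cholesterol, 3 without it and 3 on deprivation of fasted worms, and 0 rose in any of these, with unc-27, tnt-2 and unc-15 among them. Over all probe sets, 3.14%, 1.92% and 0.417% fell in these contrasts. Of 8 germline and 8 neuronal markers, limma called 0 in the 4 single-factor comparisons, where 1.1% to 5.16% of all probe sets passed. At an unadjusted p under 0.05 the highest counts were 2 germline and 3 neuronal genes, both on fasting with cholesterol.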

How the data were processed

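Labelled cRNA from whole worms was hybridised to 8 one-colour Affymetrix arrays. The deposited intensity values, 1 per probe set and array on a linear scale, were normalised by the authors with RMA (no version given), according to the submitters' processing notes. RMA equalises array distributions, so differences in total RNA are not visible, and the number of arrays limits precision. Of 22625 probe sets, 77 controls were left out.

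Values were fitted as log2(signal + 1) in limma 3.58.1 (R 4.3.3), 1 mean per group, with two-sided tests adjusted over all probe sets of each of 9 comparisons. On simulated arrays of 22548 probe sets, 79% of 2-fold and 99% of 4-fold changes were recovered for fasting with cholesterol, with 19 false calls. The simulated noise was normal, independent between arrays and as wide as limma's own estimate for each probe set. Changes were planted only in probe sets above the lower quartile of signal. These shares therefore check the fit and do not give the recovery on the real arrays. Platform gene names were updated through a RefSeq table (WBcel235) for 20701 of 20766 probe sets with 1 symbol; 887 had several and 895 none.

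The labels name no day shared by replicates, but same-numbered arrays deviated together from their group means in all 6 pairs of groups (r = 0.218 to 0.53 across probe sets), so values with the replicate block stand where they change a call. The members and the 9 gene lists were chosen with earlier results of these data known. Besides the members, the text names up to 3 passing genes per list and the 3 genes nearest to each called member; elt-2, gpdh-1, gpdh-2, daf-16, hsf-1, hosl-1, aqp-10 and aqp-11 were added after their values were seen. The listed aqp-9, aqp-12, pgph-1, pgph-2, pgph-3, gck-3 and dpy-10 were not analysed here. Alternatives covered pseudocount, scaling, dim probe sets, the block, the variance prior, probe set choice and leaving out each array. Figures were drawn with matplotlib 3.10.9.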

Additional observations from a re-analysis of the deposited data

Results flagged for a closer look

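The fasting change of aqp-1 differed between the cholesterol states, with a difference of -3.21 on the log2 scale (fasting change without cholesterol minus fasting change with it; limma adjusted p = 0.0184). The fasting changes behind it were 0.61 without cholesterol and 3.82 with it. In each case both fasted arrays were above both fed arrays, a separation that 46.2% and 57% of all probe sets showed in either direction. The test of the difference itself is what marked it. The difference missed the threshold in 7 of 17 alternatives, among them a pseudocount of 16 (-3.11, limma adjusted p = 0.0592). The genes adh-1 and acs-2 were marked by the same test with differences of -4.10 (limma adjusted p = 0.0372) and -3.18 (adjusted p = 0.0476). They were picked for a profile like that of aqp-1, so this is no independent result. These 2 genes missed the threshold in 7 and 9 of 17 alternatives. Groups of 2 arrays are too small for a check of single arrays against their group.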

How the results depend on the processing

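Of 15 aquaporin calls, 4 passed under all 17 alternatives, all of them of aqp-1: fasting with cholesterol (3.71 to 3.93), both factors together (2.45 to 2.91), fed deprived worms against fasted worms with cholesterol (-1.96 to -1.56) and average fasting (2.10 to 2.33). None of the 15 changed sign. With a pseudocount of 16, the called aquaporins numbered 1 for deprivation of fed worms (3 in the report), 0 for deprivation of fasted worms (1), 0 for the difference between fasting changes (1) and 1 for average deprivation (2). Cyclic loess and the bright-set shift, which moved the median of all probe sets by at most 0.09, each gave 1 for average deprivation. The replicate block gave 1 for fasting without cholesterol, 2 for fed deprived against fasted worms with cholesterol and 4 for average deprivation. The block changed no other call besides aqp-8 on fasting with cholesterol and aqp-3 under both factors together.

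Leaving out each array in turn, which lowers the residual degrees of freedom, gave 1 to 3 called aquaporins for fasting with cholesterol, 0 to 3 for deprivation of fed worms, 0 to 1 for deprivation of fasted worms, 0 to 1 for the difference, 1 to 4 for both factors together, 1 to 2 for average fasting and 0 to 1 for average deprivation. Over all probe sets, the block raised the calls to 3106 on fasting with cholesterol (1164 without it), 1730 without cholesterol (656), 988 (273) and 785 (249) on deprivation of fed and of fasted worms and 115 (22) for the difference. Leaving out 1 array gave 381 to 1153, 258 to 582, 25 to 284, 61 to 157 and 0 to 8 for these 5. Of 43 calls of the other named genes in these 5 comparisons, 16 passed under all alternatives and 0 changed sign. Without probe sets ending in _s_at or _x_at, aqp-2 had no value.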

Other observations

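Among 4 further aquaporin genes outside the family members described above, 2 had a probe set with a single symbol. aqp-10 gave 807.4 and 797.9 units in fasted deprived worms, 808.8 and 626.8 in fed deprived worms, 1166 and 1063 in fasted worms with cholesterol, and 1168 and 959.3 in fed worms with cholesterol. All 4 deprived arrays were below all 4 arrays with cholesterol, the reverse of aqp-8, and the average deprivation effect lowered aqp-10 (-0.52 ± 0.11, limma adjusted p = 0.047). Over all probe sets, 6.04% were separated by cholesterol state in one direction or the other, and 2.08% fell in that average. The aqp-10 call held without fed deprived replicate 1 and was lost without any 1 of the other 7 arrays (adjusted p = 0.0661 to 0.157), with a pseudocount of 16 (0.0668) and with cyclic loess (0.051). Its probe set name ends in _s_at, and neither single deprivation contrast passed (-0.57 ± 0.16 in fed and -0.47 ± 0.16 in fasted worms; adjusted p = 0.164 and 0.258). aqp-11 gave 247.2 and 224.5 units in fasted deprived worms, 319.7 and 258.1 in fed deprived worms, 283.1 and 242.7 in fasted worms with cholesterol, and 304.4 and 284.0 in fed worms with cholesterol. It passed in none of the 9 comparisons, and its fasted arrays were the lower ones at each cholesterol state (-0.29 ± 0.14 without cholesterol and -0.17 ± 0.14 with it). Fasted and fed arrays did not overlap, in either direction, in 46.2% of all probe sets without cholesterol and 57% with it.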
